A study of Mus musculus with 17 samples.

Results

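Aurka, Plk1, Fbxw7, Huwe1, Usp7, Gsk3b and Trpc4ap encode proteins that lengthen or shorten the life of the MYCN protein. They were chosen by name, as 7 of the 18193 genes with a probe set of their own on the array, and all 7 were measured. A probe set is a group of short oligonucleotides on the array that together report on a transcript. The 7 genes had 25 probe sets annotated to a single symbol, and each gene was represented by its probe set of highest mean. Values are log2 expression values, so that a difference of 1 is a change of 2-fold.

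MYCN is a transcription factor that is made and destroyed quickly in dividing neural precursors. In its usual route of destruction a cell cycle kinase first phosphorylates the protein, and glycogen synthase kinase 3 beta (Gsk3b) then phosphorylates a nearby residue. The doubly marked protein is bound by Fbxw7, the substrate receptor of an SCF ubiquitin ligase, and is sent to the proteasome. Aurora A kinase (Aurka) binds MYCN and protects it from Fbxw7, and Polo-like kinase 1 (Plk1) promotes the loss of Fbxw7 itself. Both of these kinases are made mainly around mitosis. Huwe1 is a large ubiquitin ligase that also marks MYCN, Trpc4ap is a substrate receptor of a second class of ligase, built on Cul4 and Ddb1, and Usp7 is a deubiquitinase that removes ubiquitin from MYCN. The arrays measure mRNA and give no reading of the MYCN protein, of its phosphorylation or of its half-life.

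The samples were 17 primary abdominal neuroblastomas of TH-MYCN mice, each hybridized to its own Affymetrix mouse array. The mice were hemizygous for the transgene on a single inbred background, and the labels name no treatment. The transgene is driven by the rat tyrosine hydroxylase promoter, which is active in the neural crest lineage, so every tumor shares the oncogene and there was no normal tissue beside it. The labels put all tumors in a single group and give no age, sex or weight for a tumor, so the question addressed here is how the 7 genes vary from tumor to tumor and with which other genes. The study describes mice of both sexes whose ages spanned a few weeks, without matching these to single tumors. Tumors are named by the submitters' numbers, mad548 to mad565.

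Over the array as a whole, array medians lay between 6.28 and 6.51, and the correlation between any 2 arrays ran from 0.969 to 0.994. The mean of 14 measured sympathoadrenal genes, which mark the lineage of the tumor cells, lay between 11.32 and 11.84 in every tumor. Skeletal muscle RNA stood apart in 3 tumors, with a list mean of 12.21 in mad553, 10.61 in mad550 and 9.84 in mad549, and a median over all tumors of 6.03. Tumor mad562 had the highest liver list mean (10.18, median 5.92) and the lowest median correlation with the other arrays (0.978). The difference between the 3′ and 5′ control probe sets of actin and Gapdh, a reading of RNA integrity in which a larger difference means fewer long copies, ran from 1.89 to 2.37 on the log2 scale. In bulk tumors, fewer cells of a type and less RNA per cell cannot be told apart.

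The promoters of Aurka and Plk1 are shown first, because these 2 genes had the highest correlations with the mitosis genes described below. The sequences are those of RefSeq (GRCm38.p6), from 250 bases before to 50 bases after a transcript start site that the table lists for the gene, and all 7 genes matched an entry. That start need not be the outermost end of the gene as annotated: the windows of Aurka, Fbxw7, Usp7 and Huwe1 lie inside the annotated span. Capitals mark the motif TTTGAA, known as the cell cycle homology region of genes expressed around mitosis, and the motif CCAAT, the site of the factor NF-Y. The Aurka promoter lies at chr2:172370521-172370820 on the minus strand and the Plk1 promoter at chr7:122159185-122159484 on the plus strand.
Aurka: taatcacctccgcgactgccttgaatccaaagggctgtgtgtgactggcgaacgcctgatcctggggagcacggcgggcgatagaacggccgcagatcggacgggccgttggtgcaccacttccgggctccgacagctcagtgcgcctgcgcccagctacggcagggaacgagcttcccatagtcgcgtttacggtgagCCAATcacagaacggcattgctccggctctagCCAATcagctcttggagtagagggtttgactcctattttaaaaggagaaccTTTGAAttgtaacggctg
Plk1: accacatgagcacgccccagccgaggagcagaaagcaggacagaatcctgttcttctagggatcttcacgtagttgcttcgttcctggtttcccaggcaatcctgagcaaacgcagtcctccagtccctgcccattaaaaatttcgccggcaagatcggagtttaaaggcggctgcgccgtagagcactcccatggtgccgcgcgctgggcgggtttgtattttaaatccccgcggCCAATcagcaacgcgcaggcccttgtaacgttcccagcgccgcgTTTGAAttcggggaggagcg

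TTTGAA began 33 bases into the Aurka transcript and 31 bases into the Plk1 transcript, in the direction of the gene in both. CCAAT lay upstream of it at -51 and -19 in Aurka and at -14 in Plk1, counted from the listed start site to the first base of the motif. Both motifs were searched on both strands. By their letters they can share a base at their ends. TTTGAA was found in 17.9% of all 32851 promoters of this length in the table and CCAAT was found in 37.4% of them. Both motifs were held by 6.95%. Of the 13 measured mitosis genes with a promoter in the table, 9 held TTTGAA, and the same count was 2 of 13 for the DNA replication genes. A gene was counted when any of its listed promoters held the motif, whereas the shares above are of single promoters. Gsk3b and Usp7 held CCAAT without TTTGAA, and neither motif was found in the promoters of Huwe1 or Trpc4ap or in any of the 3 listed for Fbxw7. CACGTG, the E-box that MYC proteins bind, was found in 7.15% of all promoters and in none of the 9 of these genes. A match of letters is a description of the sequence and not of binding.

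The mRNA of Aurka and Plk1 was present in every tumor, with a spread between tumors near that of the median gene. On every array, the probe sets used for the 7 genes were brighter than at least 83.5% of the probe sets with a single symbol. Aurka, at chr2:172356190-172370886, ranged from 10.22 in mad553 through a median of 10.48 to 10.86 in mad565 (10.49 ± 0.20, SD, n = 17). This is a span of 1.55-fold. The low end was shared by mad553, mad555, mad554, mad563 and mad550, all at or below 10.28, while mad565 stood above mad552, the next tumor at 10.70. Plk1, at chr7:122159435-122169884, ranged from 10.35 in mad553 through a median of 10.90 to 11.18 in mad562 (10.91 ± 0.20), a span of 1.78-fold. Its low end was a single tumor: mad553, which also had the most skeletal muscle RNA, lay well below mad554, the next lowest at 10.68.

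Fbxw7 and Gsk3b, the receptor and the kinase of the main route of MYCN destruction, had the widest spans of the 7 genes on the probe sets used. Fbxw7, at chr3:84814990-84979198, ranged from 9.79 in mad565 through a median of 10.20 to 10.87 in mad563 (10.26 ± 0.26), a span of 2.11-fold. Gsk3b, at chr16:38089001-38246084, ranged from 10.88 in mad565 through a median of 12.02 to 12.61 in mad563 (11.98 ± 0.37), a span of 3.31-fold. The same tumors thus stood at both ends of both genes. In Gsk3b the tumor mad565 was clearly separate, since the next lowest, mad553, had 11.61. Aurka ran the other way in these tumors, being highest in mad565 and among the lowest in mad563 (10.25).

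Huwe1 and Usp7 varied least on the probe sets used. Huwe1, at chrX:151800785-151935417, ranged from 10.73 in mad551 through a median of 10.91 to 11.07 in mad549 (10.93 ± 0.10). Usp7, at chr16:8688722-8757067, ranged from 12.14 in mad551 through a median of 12.31 to 12.50 in mad556 (12.31 ± 0.11). Only 2.33% and 4.14% of all other genes had a smaller SD than Huwe1 and Usp7, and no tumor stood apart in either. Trpc4ap, at chr2:155634277-155692384, varied more, from 9.98 in mad556 through a median of 10.36 to 10.72 in mad560 (10.37 ± 0.23). Its values formed a continuous spread, with mad558 (10.03) and mad559 (10.06) beside mad556 at the low end, and mad563 (10.71) and mad554 (10.63) beside mad560 at the high end. As a group the 7 genes were not unusually variable or steady. Their median SD was 0.20, against 0.19 over all 18193 genes and 0.20 over the 10479 genes whose mean reached 6.75, the mean over arrays of the median of all probe sets with a single symbol. Gsk3b had a larger SD than 87.5% of other genes, Fbxw7 than 72.9%, Trpc4ap than 66.6%, Plk1 than 53.5% and Aurka than 52.9%.

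**Figure D1:**
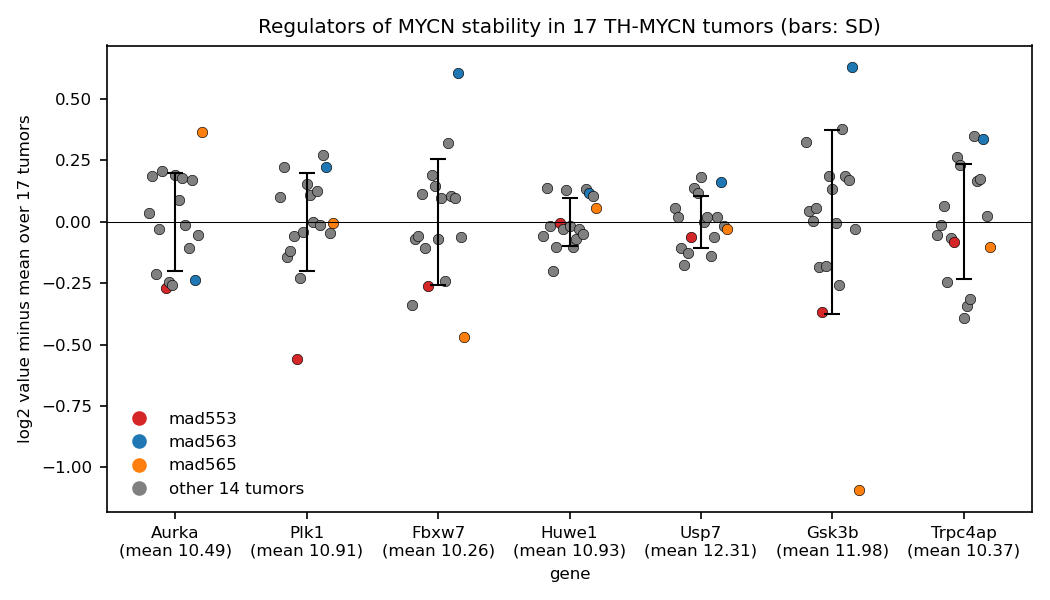
Log2 value of each gene in each of the 17 tumors, less the mean of that gene (y axis), drawn as 1 point for each tumor with bars of 1 SD; the x axis names the gene and its mean. Tumors mad563 and mad565 lie at opposite ends of Fbxw7 and Gsk3b, mad553 is the lowest tumor in Plk1 and Aurka, and the points of Huwe1 and Usp7 lie close together.

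How far such differences can be read depends on whether other probe sets of the same gene show them. For Fbxw7 they did: its 2 probe sets correlated at r = 0.89 over the tumors and had the same lowest and highest tumor. Both are annotated to the same source sequence, so they are not independent readings of the gene. For Gsk3b, 4 of the 5 other probe sets had an r of 0.37 to 0.71 with the chosen one and the dimmest had -0.02. The low value of mad565 was the lowest in 2 of these other probe sets as well, but the second brightest, of mean 11.74, was lowest in mad552. With the mean of all probe sets of each gene, the SD of Gsk3b was 0.17 in place of 0.37 and that of Trpc4ap 0.12 in place of 0.23, that of Huwe1 was 0.16 in place of 0.10, and that of Fbxw7 was 0.29. The order of the genes by spread, other than the place of Fbxw7 near the top and of Usp7 (0.09) near the bottom, therefore depended on the probe sets. Agreement was poor for the genes of small spread. The 4 other Huwe1 probe sets had an r of 0.40, -0.41, -0.34 and -0.14 with the chosen one, and the 6 others of Usp7 lay between -0.09 and 0.55. Tumor-to-tumor differences in Huwe1 and Usp7 therefore depended on the probe set, and their order of tumors is given here only as a description. Aurka had a dim alternative probe set (mean 7.32, r = 0.15), Trpc4ap had 1 near the bottom of the array (mean 4.52, r = -0.15), and Plk1 had no other.

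**Figure D2:**
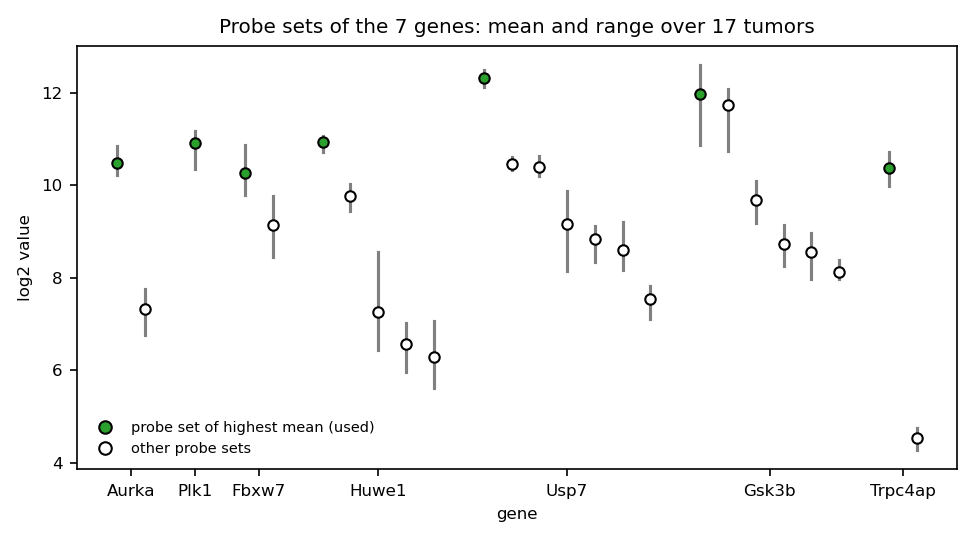
Mean (circle) and range over the 17 tumors (line) of the log2 value of each of the 25 probe sets, grouped by gene on the x axis; filled circles are the probe sets of highest mean, which were used. Probe sets of a gene lie at very different levels, from 10.93 down to 6.29 in Huwe1, so levels of different probe sets are not compared.

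The 7 genes did not vary as a block. Of the 21 pairs, 16 had a positive and 5 a negative correlation over the 17 tumors, with a median r of 0.23 and a range from -0.54 to 0.72. Each pair was tested in a limma fit of all genes on the log2 value of a member, with Benjamini-Hochberg adjustment over all genes, and counted when it passed at 0.05 in both directions. None of the 21 pairs did, whereas 7 had an unadjusted permutation p under 0.05. As background, the fits called 1.39% of all genes on Fbxw7, 1.09% on Trpc4ap, 0.407% on Plk1, 0.104% on Gsk3b and 0% on Aurka, Huwe1 and Usp7. In the last 3 fits limma gave an unadjusted p under 0.05 for 2161, 867 and 1768 of 18192 genes. Over the 7 fits this share ran from 4.77% on Huwe1 to 15.9% on Fbxw7.

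The highest Pearson correlation over all tumors was between Fbxw7 and Gsk3b, the receptor that binds phosphorylated MYCN and the kinase that prepares it for binding. Their values correlated at r = 0.72 (rho = 0.60) over the 17 tumors (permutation p = 0.00161 and 0.0134). Gsk3b passed in the fit on Fbxw7 (limma, adjusted p = 0.0340), and Fbxw7 did not pass in the fit on Gsk3b (adjusted p = 0.0921). Without mad563 and mad565, the 2 tumors farthest from the median of Fbxw7, r was 0.40. With the mean of all probe sets of each gene r was 0.51 and the adjusted p 0.336, so the size of the relation depends on those tumors and on the probe sets. The call was also lost without any 1 of mad555, mad559, mad560, mad561, mad563 and mad565 (adjusted p 0.0508 to 0.163). Between Fbxw7 and Trpc4ap, the receptor of the Cul4 ligase, r was 0.59 (rho = 0.69, permutation p = 0.0120 and 0.00267, adjusted p = 0.148 and 0.159), and 0.53 without mad563 and mad565. By rho, or by r without those 2 tumors, it was thus higher than that of Fbxw7 and Gsk3b.

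Aurka had a negative correlation with the receptors of both ligase classes. Its r was -0.54 with Trpc4ap (rho = -0.53, permutation p = 0.0277 and 0.0297) and -0.50 with Fbxw7 (rho = -0.52, permutation p = 0.0371 and 0.0337). Without mad553 and mad565, the tumors farthest from the median of Aurka, these became -0.64 and -0.55. In the limma fits on Aurka neither passed after adjustment over all genes (adjusted p = 0.321 for Trpc4ap and 0.359 for Fbxw7). Both stayed negative under all 11 processing alternatives, with r from -0.69 to -0.06 for Trpc4ap, the weakest with the mean of all probe sets, and from -0.72 to -0.21 for Fbxw7, the weakest without mad563 and mad565.

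Aurka and Plk1, the 2 mitotic kinases, correlated at r = 0.50 (rho = 0.47, permutation p = 0.0393 and 0.0597, limma adjusted p = 0.380), and at r = 0.47 without mad553 and mad565. Unlike Aurka, Plk1 had positive correlations with Fbxw7 (0.31), Gsk3b (0.46) and Trpc4ap (0.08). Huwe1 had an r of 0.49 with Usp7 and of 0.50 with Trpc4ap (permutation p = 0.0477 and 0.0435, adjusted p 0.906 for both in the fit on Huwe1). The sign of the first turned with probe sets that match a single transcript (-0.013) and that of the second with the mean of all probe sets (-0.10), so neither is a stable description of these genes.

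**Figure D3:**
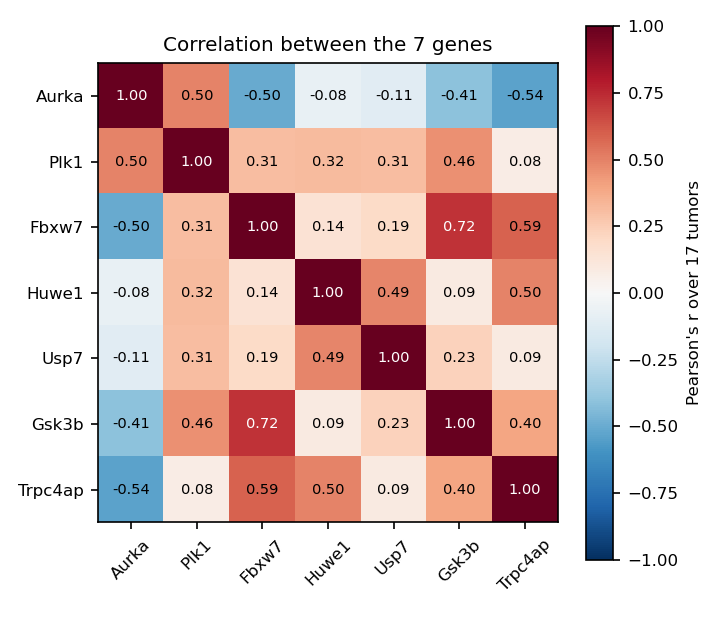
Pearson's r over the 17 tumors between each pair of the 7 genes, as colour and number, with genes in the same order on both axes. The highest value is 0.72, between Fbxw7 and Gsk3b, and Aurka has negative values with every gene but Plk1.

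**Figure D4:**
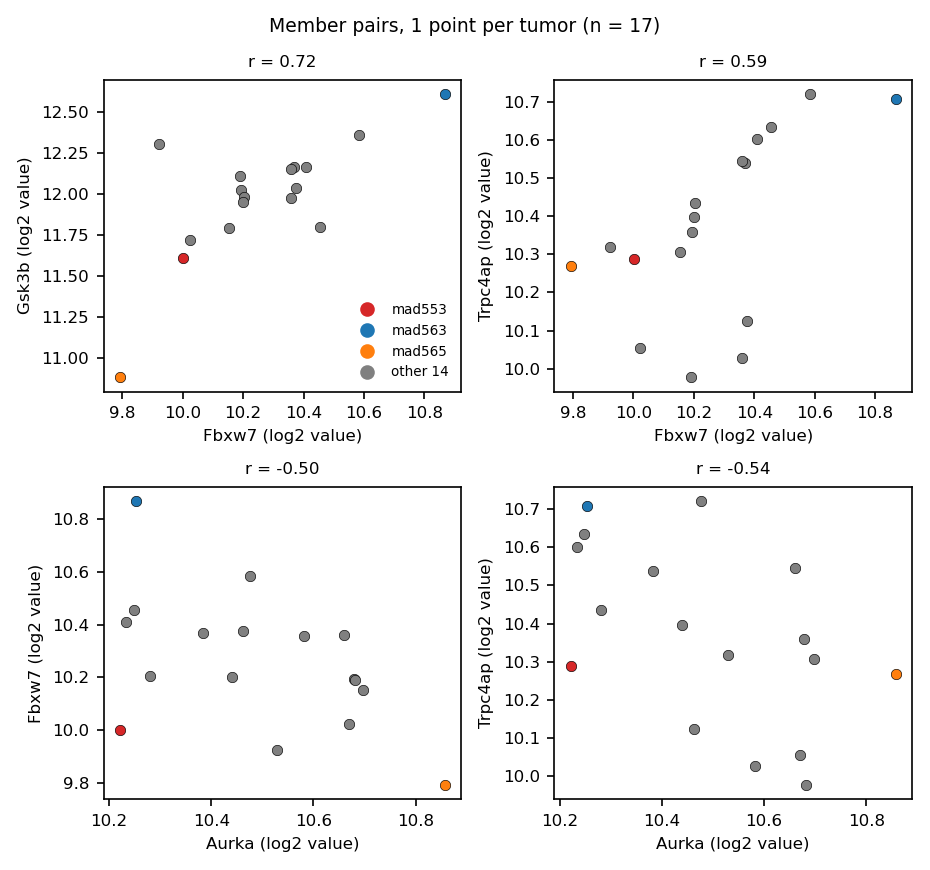
Log2 values of 4 pairs of genes, with 1 point per tumor and the r of each pair above its panel. Fbxw7 (x axis) is set against Gsk3b and Trpc4ap in the upper row, and Aurka (x axis) against Fbxw7 and Trpc4ap in the lower row; mad563 and mad565 lie at the ends of the first panel.

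Because Aurora A and Plk1 act in mitosis, all 7 genes were set against the mean of 16 measured mitosis genes, such as Cdc20, Bub1 and Mki67. That mean ran only from 11.27 in mad553 to 11.78 in mad549. Plk1 followed it at r = 0.82 (rho = 0.70, permutation p = 8.0e-05 and 0.00232) and was the only member to pass (limma, adjusted p = 0.0174, 1.04% of all genes called). This rests in part on mad553. Without that tumor r was 0.66 and the adjusted p 0.286, and without the 3 tumors with skeletal muscle RNA they were 0.54 and 0.524. Plk1 had an r of -0.53 with the skeletal muscle list, of which 11 of 11 genes were measured, and an r of 0.29 without mad550 and mad553. With the muscle list in the fit of Plk1 on mitosis, r was 0.77 and the adjusted p 0.0973.

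Aurka had an r of 0.66 with the mitosis list (rho = 0.71, permutation p = 0.00267 and 0.00185), and the limma fit did not call it (adjusted p = 0.114). It passed with arrays centred on their medians (r = 0.76, adjusted p = 0.0187) and with the first principal component in the fit (0.79 and 0.0478). Tumor mad563 lay off this line, with a mitosis mean of 11.65 beside an Aurka value of 10.25. The other members had an r between -0.32 (Trpc4ap) and 0.23 (Usp7). Against the mean of 16 DNA replication genes, such as Mcm2 to Mcm7 and Pcna, Plk1 had an r of 0.62 and Aurka one of 0.47, and these were 0.30 and 0.33 without mad553 and mad558. None of the 7 passed in limma (adjusted p from 0.259 to 0.983, 1 with an unadjusted permutation p under 0.05, 0.011% of all genes called). In the DNA replication fit, 10% of all genes had an unadjusted limma p under 0.05.

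The sympathoadrenal list, which holds Th, Dbh, Chga, Gata3 and other genes of catecholamine cells, gave correlations of both signs. The correlation with it was positive for Trpc4ap (r = 0.65), Fbxw7 (0.61) and Gsk3b (0.50) and negative for Aurka (-0.62). The permutation p was 0.00534 for Trpc4ap, 0.0105 for Fbxw7, 0.0372 for Gsk3b and 0.00845 for Aurka, and rho was 0.63, 0.60, 0.51 and -0.64. Leaving out mad554 and mad560, the tumors farthest from the list median, gave 0.49, 0.51, 0.59 and -0.67. Over the 11 processing alternatives no sign reversed, and r ran from 0.53 to 0.72 for Trpc4ap and from 0.47 to 0.69 for Fbxw7. It ran from 0.19 to 0.62 for Gsk3b and from -0.74 to -0.27 for Aurka, the weakest with the mean of all probe sets. None of the 7 genes passed after adjustment over all genes (limma, adjusted p from 0.123 to 0.996, with 0.55% of all genes called, and 4 with an unadjusted permutation p under 0.05). Over all genes, 15.5% had an unadjusted limma p under 0.05 in this fit. Plk1, Huwe1 and Usp7 had an r of -0.11, -0.08 and 0.00.

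**Figure D5:**
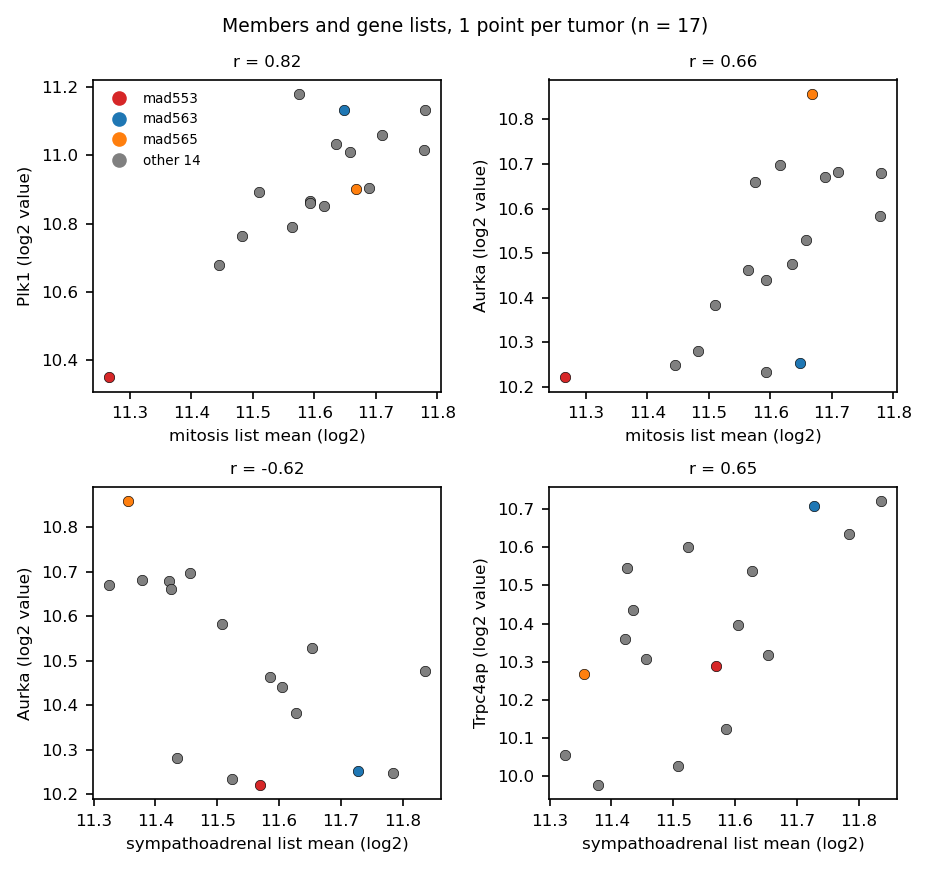
Log2 value of a gene (y axis) against the mean log2 value of a gene list (x axis) in the 17 tumors, with r above each panel. In the upper row Plk1 and Aurka are set against the mitosis list, where mad553 is lowest on both axes; the lower row sets Aurka (r = -0.62) and Trpc4ap (r = 0.65) against the sympathoadrenal list.

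Of the MYC genes themselves, none passed with any of these regulators. Mouse Mycn ranged from 8.59 in mad558 through a median of 9.19 to 9.68 in mad548 (9.21 ± 0.28), and whether its probe set also reads the transgene is not given in the sources used here. Its r with the 7 genes lay between -0.25 (Fbxw7) and 0.05 (Gsk3b), and none passed in limma or had an unadjusted permutation p under 0.05 (adjusted p from 0.748 to 0.985, 0.0055% of all genes called). Myc was dim in every tumor (5.71 ± 0.26) and highest in mad565 (6.21), the tumor of lowest Fbxw7, with which it had an r of -0.54 (limma, adjusted p = 0.214). Mycl, the third gene of the family, was highest in mad563 (7.83), as Fbxw7 was, and had an r of 0.69 with it (adjusted p = 0.0667). With Gsk3b, Mycl had an r of 0.58 and Myc one of -0.44. Max, the partner with which MYC proteins bind DNA, had an r of 0.08 with Fbxw7.

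Other genes of MYCN turnover were described with 6 lists of partners, ligase subunits, ligases, deubiquitinases, kinases and phosphatases, and MYC genes, in which 44 of 49 genes were measured. Over the 7 fits, 3 of 308 tests passed, 1 each in the fits on Trpc4ap, Fbxw7 and Plk1. These fits called 1.09%, 1.39% and 0.407% of all genes, mostly with positive sign, and 1 of 44 genes in each is read as no more than that background. Akt1, a survival kinase that inhibits Gsk3b, followed Trpc4ap at r = 0.84 (limma, adjusted p = 0.00578). It ranged from 10.57 in mad559 to 11.48 in mad562, and it passed in 10 of 11 alternatives and without any 1 tumor. The exception was ranks, with which no fit called a gene. Usp22, a deubiquitinase of the SAGA complex that also acts on MYC, followed Fbxw7 at r = 0.74 (adjusted p = 0.0330) and was highest in mad563 (12.47). Tacc3, a spindle protein that Aurora A recruits, followed Plk1 at r = 0.81 (adjusted p = 0.0280) and was lowest in mad553 (10.28). Tacc3 and Usp22 each lost the call in 6 of 11 alternatives, ranks among them (adjusted p up to 0.680 and 0.354). Without mad553 the adjusted p of Tacc3 was 0.666, and Usp22 no longer passed without any 1 of mad555, mad559, mad560 and mad563 (adjusted p 0.0503 to 0.240).

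Most partners of the mitotic kinases had a positive r with both. Tpx2, the protein that activates Aurora A on the spindle, had an r of 0.81 with Aurka (limma, adjusted p = 0.0781) and Cdk1, the kinase of mitotic entry and not a gene of the partner list, one of 0.76 (adjusted p = 0.121). Of 9 measured partners, 8 had a positive r with Aurka and 8 with Plk1, with medians of 0.37 and 0.55, against medians over all genes of -0.08 and 0.08. The exception was Ajuba, a scaffold protein (-0.24 and -0.30). Cip2a, an inhibitor of the phosphatase PP2A that acts on MYC, had an r of -0.63 with Fbxw7, -0.66 with Gsk3b and -0.64 with Trpc4ap (adjusted p from 0.112 to 0.185). Its r was also negative with Huwe1 (-0.56), Plk1 (-0.46) and Usp7 (-0.40), and was positive only with Aurka (0.33). None of the 9 measured ligase subunits passed with their receptors. Of the SCF subunits, Cul1 had an r of 0.38 with Fbxw7, Skp1 one of 0.23 and Rbx1 one of 0.07. Of the other class, Cul4b had an r of 0.35 with Trpc4ap, Ddb1 one of 0.14 and Cul4a one of 0.02. The highest r of the 9 subunits crossed the classes: Cul4b had 0.49 with Fbxw7, and Skp1 had 0.40 with Trpc4ap.

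Beyond these lists, the genes whose pattern over the 17 tumors was most like that of Fbxw7 were Tspyl3 (r = 0.92), Magee1 (0.91) and Chd5 (0.89), a chromatin remodeller of neurons. Those running most against it were Noc2l (-0.88) and Utp23 (-0.87), proteins of ribosome biogenesis, and Actr3 (-0.87), a subunit of the actin-nucleating Arp2/3 complex. The fit on Fbxw7 called 252 of 18192 genes, 189 of them with positive sign. It called 20 without mad563 and 2 without mad563 and mad565. Plk1 was most like Idh2, the mitochondrial isocitrate dehydrogenase (0.90), Exosc8, a subunit of the RNA exosome (0.90), and Rnf5, a ubiquitin ligase of the endoplasmic reticulum (0.90), in a fit that called 62 genes with positive and 12 with negative sign. Running most against it were Sptlc1, of sphingolipid synthesis (-0.81), Myom1, a protein of the muscle sarcomere (-0.80), and Cds2, of phospholipid synthesis (-0.79). Without mad553 the fit on Plk1 called no gene, and without mad562 it called 287.

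Trpc4ap was most like Coq8b, of coenzyme Q synthesis (0.93), Napa, a factor of vesicle fusion (0.92), and Slc38a7, an amino acid transporter (0.91), and ran most against the centrosomal Cep83 (-0.85), Slain1 (-0.81) and Sesn3 (-0.79). Of the 199 genes its fit called, 185 had a positive sign. This gene also followed the array median (r = 0.55), and with arrays centred on their medians the count was 75. The fit on Gsk3b called 19 genes, with Bcl2l13 (0.89), Casd1 (0.87) and Spata5 (0.86) closest and Ubxn7 (-0.88), Id1 (-0.83), an inhibitor of differentiation factors, and Uspl1 (-0.83) opposite. It called none without mad563 and mad565. The count was also 0 without mad549 alone, without mad551 alone and with arrays centred on their medians, so these calls are not stable. In the fits that called no gene, the highest and lowest r belonged to Ndufab1 (0.85) and Vat1 (-0.85) for Aurka, to Pip4k2b (0.82) and Pgap1 (-0.77) for Huwe1, and to Thap4 (0.86) and Purg (-0.73) for Usp7, as a description.

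Markers of other cells were set against the 7 genes in the same way, with 9 lists and 63 relations. None passed in limma (adjusted p of 0.260 or more), and 6 had an unadjusted permutation p under 0.05. Over all genes, the share with an unadjusted limma p under 0.05 ran from 4.53% on skeletal muscle to 15.7% on macrophage. As background, the fits called 5.3% of all genes on the macrophage list, 1.35% on liver, 0.731% on endothelial, 0.495% on skeletal muscle, 0.0715% on adipose, 0.0605% on erythroid, 0.033% on fibroblast and 0% on the Schwann cell and T and NK cell lists. Plk1 with the muscle list was 1 of the 6 relations with an unadjusted permutation p under 0.05. The others were Plk1 with the erythroid list (r = -0.50), Fbxw7 and Trpc4ap with the adipose list (-0.50 and -0.56), and Huwe1 and Trpc4ap with the T and NK cell list (0.75 and 0.65). The adipose list had 5 of 7 genes measured and ran from 6.23 in mad552 to 10.73 in mad556, the tumor of lowest Trpc4ap. The T and NK cell list, with 8 of 8 measured, stayed between 5.54 and 5.88, and its brightest gene, Cd4, had a mean of 7.06. Huwe1 still had an r of 0.66 with it without mad555 and mad562 (rho over all tumors 0.73, permutation p = 0.000530 for r, limma adjusted p = 0.281). The mean of this list stayed below 6.75, the mean array median, in every tumor. Other Huwe1 probe sets had an r of 0.40, -0.41, -0.34 and -0.14 with the one used. With the array median, Trpc4ap had an r of 0.55 and Huwe1 one of 0.31. The control difference used as a reading of RNA integrity moved with several of the genes. The 3′ to 5′ difference had an r of -0.58 with Plk1, -0.56 with Trpc4ap, -0.52 with Fbxw7 and -0.48 with Gsk3b, and of -0.06 with Aurka (permutation p = 0.0142, 0.0183, 0.0329, 0.0543 and 0.809). Without mad556 and mad560 these became -0.81, -0.31, -0.45, -0.53 and -0.23. The part of this difference, or of what causes it, in the relations among these genes was not tested beyond the fit that follows. With that difference in the fit, Plk1 kept its call with the mitosis list, whereas Gsk3b lost its call with Fbxw7 (r = 0.63, adjusted p = 0.180) and the r of Fbxw7 with Trpc4ap was 0.42. The fits then called 32 genes on Fbxw7, 4 on Plk1, 5 on Gsk3b and 109 on Trpc4ap.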

How the data were processed

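The deposited values are log2 expression values of 45101 probe sets, 1 Affymetrix Mouse Genome array per tumor. The submitters' processing notes list RMA, with no version, and Partek 6.4, and the methods section of the study names MAS5 scaling instead. The values were taken as RMA values because they lie between 3.28 and 15.59. RMA compresses small differences and is meant to equalize arrays, but the array medians of the deposited values still ran from 6.28 to 6.51. No intensities were analysed here, and the precision is limited by the 17 arrays. No label says that tumors came from separate mice. The study reports as many mice as tumors, and more tumors than the series holds arrays. The p-values measure the spread between these samples.

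Genes were named from the 34945 probe sets with 1 symbol; 932 had several, 9160 none and 64 were controls. The members, and the 18 lists of 174 entries (161 measured), were chosen with earlier results of these data known. Each gene was fitted on a covariate (a member, Mycn or a list mean) with limma 3.58.1 in R 4.3.3 (trend, Benjamini-Hochberg over all genes, the covariate's own genes left out), with correlations from 100000 two-sided permutations of tumors (seed 1). Genes outside the lists are named by a rule: among genes that passed and whose mean reached 6.75, the 3 highest and 3 lowest r, or 1 of each where none passed. Myc, Mycl, Max, Tpx2, Cdk1 and Cip2a were named after their values were seen. The fit was checked on simulated data, with normal noise drawn separately for each gene. Such data do not test the effect of co-varying genes or of tumors that stand apart. There were 9 alternatives and leave-one-out, and 2 alternatives added after the data were seen. Python 3.11.15, NumPy 2.4.6, SciPy 1.17.1 and Matplotlib 3.10.9 were used.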

Additional observations from a re-analysis of the deposited data

How the results depend on the processing

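No paired analysis was possible because all tumors form a single group. The absence of pairs that passed in both directions, and of members that passed with the DNA replication, sympathoadrenal and cell type lists or Mycn, was the same under all 11 alternatives; leaving out each tumor in turn gave 0 to 1 pairs (Fbxw7 and Gsk3b, without mad548). The number of members that passed with the mitosis list was 2 with centred arrays or the first principal component in the fit, 0 with the muscle list in the fit (where Plk1 kept an r of 0.77, against 0.82 as reported), without mad549, mad550 and mad553 or with ranks, and 0 to 1 on leaving out each tumor (0 without mad553). The 3 pathway calls became 10 with centred arrays, 1 without mad549, mad550 and mad553, 6 without mad562, 7 among genes whose mean reached 6.75 and 0 with ranks, and 2 to 6 on leaving out each tumor. Relations of Huwe1 that had not been called reversed in sign, Usp7 to -0.013 with probe sets without a suffix and Trpc4ap to -0.10 with the mean of all probe sets. Over the alternatives, the genes called ranged from 0 to 112 for Aurka (0 as reported), 0 to 287 for Plk1 (74), 0 to 431 for Fbxw7 (252), 0 to 114 for Gsk3b (19), 0 to 416 for Trpc4ap (199) and 0 to 661 for the mitosis list (189); the causes were not tested. Leaving out each tumor gave 0 to 287 for Plk1 (without mad553 and mad562), 20 to 422 for Fbxw7 (without mad563 and mad548), 0 to 114 for Gsk3b (0 without any 1 of 9 tumors), 55 to 237 for Trpc4ap (without mad559 and mad562) and 2 to 237 for mitosis (without mad553 and mad563). Fits on Huwe1 and Usp7 called none under any of them. With ranks every fit called 0 genes, even that on Trpc4ap, with which Coq8b had a rho of 0.95. Ranks give every gene the same spread, and limma pools the spread over genes, which left little room for a call. The zeros with ranks, here and above, therefore decide nothing. For Fbxw7, Trpc4ap and the mitosis list, the 0 at the low end over the alternatives was that of ranks.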
